A study of Saccharomyces cerevisiae with 4 samples.

Results

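The genes described here are the 56 yeast genes whose standard name is UTP, NOP, RRP or NOC followed by a number, chosen by name from 6172 genes and unmatched reading frames on the arrays. The UTP family has 18 members, NOP 17, RRP 18 and NOC 3. Of the 56, 51 had a value on all 4 arrays and could be tested, 16 UTP genes and 35 of the other families. UTP8, UTP9, RRP3 and RRP5 lacked array 2, and NOP10 was matched by no feature.

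Each array was a two-colour DNA microarray that compared RNA of treated and untreated Saccharomyces cerevisiae, both of an rlm1 mutant. RLM1 encodes a transcription factor activated by the cell wall integrity kinase cascade; its mutation was shared by both sides, so no value here shows what RLM1 itself does, and the labels give neither the allele nor the strain background. A culture in YEPD at 24 °C was split, and one portion received Zymolyase 100T, a glucan-digesting enzyme mixture that damages the wall, at 5 units per ml. Cells of both portions were taken at 3 hours. There were 2 such cultures, each hybridised with the dyes exchanged: the zymolyase RNA was labelled with Cy3 for arrays 1 and 3, and with Cy5 for arrays 2 and 4.

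The products of these genes build ribosomes. UTP proteins, named for their association with the U3 small nucleolar RNA, belong to the small-subunit processome, the particle that forms on the nascent ribosomal RNA precursor around it. NOP, RRP and NOC are names for nucleolar proteins, ribosomal RNA processing factors and nucleolar complex proteins, and most of these genes serve the large subunit, the methylation and pseudouridylation of ribosomal RNA, or the exosome, the nuclease that trims RNA from its 3′ end. In yeast such genes are known as a group that is transcribed together with growth and lowered together in many stresses.

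Signs need a caution. The numerator of the deposited log ratio is not stated, nor whether the ratios had been turned for the dye exchange. Arrays 2 and 4 were turned here, with Cy3 taken as the numerator, because this places known stress genes on the zymolyase side on all 4 arrays. HSP12, a stress protein gene, then read 3.22 on array 1, 2.52 on array 3, 3.09 on array 2 and 2.17 on array 4. In the same order the glycerol synthesis gene GPD1 read 2.37, 1.42, 2.20 and 1.38, its partner GPP2 1.31, 1.39, 1.60 and 1.41, and the stress gene DDR2 1.91, 1.19, 3.01 and 2.15. This reading is likely, not settled, and the opposite numerator would turn every sign below. All values are log2 ratios of zymolyase over untreated, on the assumption of base 2, and 4 values in a row stand in the order arrays 1, 3, 2 and 4, that is, first those with zymolyase in Cy3. In bulk RNA, fewer cells that express a gene and less of its RNA per cell cannot be told apart.

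Array 2 had the widest ratios, with an SD of 0.62 over the 4730 genes tested against 0.31 to 0.34 on the others, and the most blanks. RLM1 was blank on all 4 arrays, so the mutation could not be checked by its level. Members were blank less often than other genes: on array 2, 7.27% of the members on the array had no value, against 19.3% of all genes matched to the reference. Across all genes tested, arrays of the same orientation correlated at r = 0.60 (arrays 1 and 3) and 0.44 (arrays 2 and 4), and arrays of opposite orientation between -0.13 and 0.051. Among the 51 members the corresponding values were 0.31 and 0.015, and between -0.44 and 0.062. These correlations describe genes that share arrays and cultures.

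The ribosome assembly genes lay slightly low with zymolyase, and only 1 of them passed the test. Their median mean log2 ratio was -0.16, against -0.012 for all genes tested, and 44 of the 51 had a negative mean, where 52.6% of all genes did. NOP13 fell, and no member rose. The low values lay on the arrays with zymolyase in Cy5: the members' median was -0.33 on array 2 and -0.37 on array 4, but -0.061 on array 1 and 0.11 on array 3. The median of all genes tested was 0.068 on array 2, -0.017 on array 4, -0.026 on array 1 and -0.025 on array 3.

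**Figure D1:**
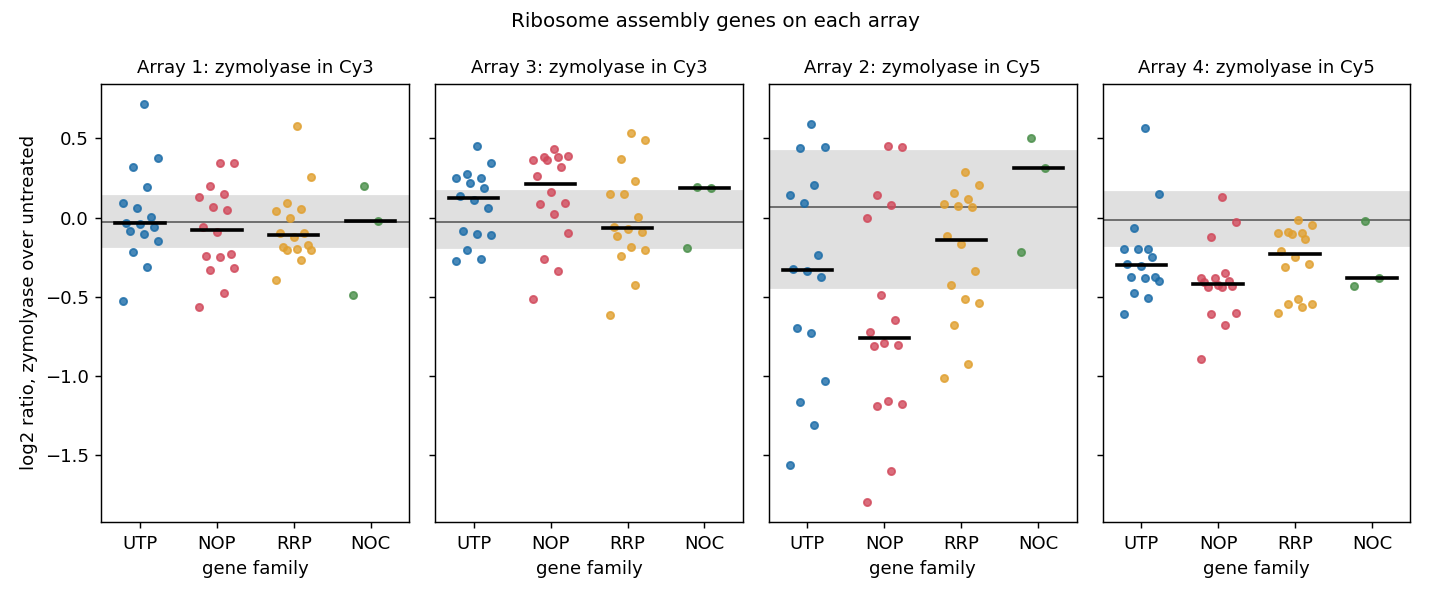
Each panel is 1 array, with the log2 ratio of zymolyase over untreated on the vertical axis and the gene family on the horizontal axis; points are members, black bars family medians, the grey line the median and the grey band the range from the lower to the upper quartile of all 4730 genes tested. On array 4 the member median was -0.37 and on array 3 it was 0.11.

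Because array 2 is wider than the others, the place of the members within each array is a fairer measure of where they stood. The median member ranked at percentile 29.5 of the genes tested on array 2 and at percentile 8.30 on array 4. On arrays 1 and 3 it ranked at percentiles 44.2 and 68.2. Array 4 thus placed them lowest, although its ratios were narrow: 48 of the 51 were negative there, where 52.8% of all genes were. On array 3, 20 of 51 were negative, below the 53.7% of all genes. On array 1 it was 31 of 51, against 54.3%, and on array 2 it was 32 of 51, against 46.5%. Both Cy5 arrays were negative in 29 members (56.9%), where 31% of all genes had that pattern, and both Cy3 arrays in 16 (31.4%), where 39.3% of all genes did.

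The zymolyase effect was tested by averaging the 2 arrays of a culture, so that an equal dye effect cancels, and comparing the culture means with 0 in limma across all genes. Of the 51 members 1 was lower and none higher, that is 1.96%, against a background of 0.803% lower, 2.35% higher and 3.15% in either direction. At an unadjusted p under 0.05, 11 members were lower and none higher, where 6.43% of all genes were lower and 6.07% higher. The share called in either direction lay below the background, and that of lower calls rests on 1 gene, so nothing about the families is read from the adjusted calls. With 2 cultures per fit, limma gave every gene the same standard error, 0.16, so a call amounted to a mean of at least 0.51 in size.

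NOP13, which encodes a nucleolar RNA-binding protein found in pre-ribosomes, read -0.56, -0.34, -0.81 and -0.40. It was below 0 on every array, and its orientations overlapped. Its mean was -0.53 ± 0.21 (SD, n = 4 arrays), 1.44-fold lower with zymolyase (limma adjusted p = 0.040). The call is marginal: with arrays scaled to a common spread the limma adjusted p was 0.060, and with a dye term over the 4 arrays it was 0.098. The plain mean over the arrays left was -0.52 without array 1, -0.43 without array 2, -0.59 without array 3 and -0.57 without array 4. In these means an equal dye effect no longer cancels. With both orientations weighted equally, the mean was -0.63 to -0.43 without single arrays. YNL174W, a reading frame numbered next to NOP13 and with no gene in the reference, was also negative on every array, at -0.23, -0.27, -0.11 and -0.39.

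Being negative on all 4 arrays was not more common among members than elsewhere. It was seen in 5 of 51 (9.8%), against 8.79% of all genes, and no member was positive on all 4, where 7.99% of all genes were. Besides NOP13 these were UTP23, RRP43, NOP14 and RRP17. UTP23, a factor of the small-subunit processome, read -0.10, -0.21, -0.38 and -0.37 (mean -0.26 ± 0.14, SD, n = 4 arrays; limma adjusted p = 0.54). RRP43, a subunit of the exosome ring, read -0.27, -0.19, -0.54 and -0.093.

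The members differed between dye orientations. The difference is given as the mean of arrays 1 and 3 minus the mean of arrays 2 and 4, and was tested over the 2 cultures in the same way, with an SE of 0.32 for every gene. Its median over the 51 members was 0.36, against -0.021 over all genes tested. Of the members 5 were higher with zymolyase in Cy3 and none lower, that is 9.8%, where 4.55% of all genes were higher and 2.14% lower, or 6.68% in either direction. They were NOP15, NOP16, UTP6, RRP4 and NOP56.

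NOP15, an RNA-binding protein gene needed for large-subunit RNA processing, read 0.20, 0.38, -1.80 and -0.60. The orientations did not overlap, and array 2 was the lowest by far. The orientation difference was 1.49 ± 0.32 (SE, 2 cultures; limma adjusted p = 0.00052). NOP16, another large-subunit factor, read 0.34, 0.37, -1.60 and -0.44, a difference of 1.38 (limma adjusted p = 0.0018). UTP6, of the UTP-B complex, read 0.38, 0.28, -1.57 and -0.38, a difference of 1.30 (limma adjusted p = 0.0041). In each of these genes the arrays with zymolyase in Cy3 were positive and those with it in Cy5 negative, and the zymolyase mean did not pass the test.

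RRP4, which encodes a cap subunit of the exosome, read 0.58, 0.54, -1.01 and -0.098 and differed by 1.11 (limma adjusted p = 0.018). Its zymolyase mean was 0.0014 ± 0.74 (SD, n = 4 arrays). NOP56, a core protein of the box C/D small nucleolar ribonucleoproteins that methylate ribosomal RNA, read 0.067, 0.26, -1.18 and -0.43 and differed by 0.97 (limma adjusted p = 0.045). These calls were not stable. All 5 passed with arrays median centred, with robust eBayes and under either possible pairing of arrays into cultures. None of the 5 passed with a dye term over the 4 arrays, and with arrays scaled to a common spread NOP15 and NOP16 passed alone. Array 2 was the lowest array for all 5; the part of its wider spread in these calls was not tested further, and the members' Cy5 median was -0.31 with the arrays scaled.

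Both arrays with zymolyase in Cy3 lay above both with it in Cy5 in 25 of the 51 members (49%), where 26.7% of all genes did. The reverse order was found in 4 members (7.84%), where 30.3% of all genes had it. Positive values on both Cy3 arrays with negative values on both Cy5 arrays were found in 14 members (27.5%), against 12.7% of all genes. Were the ratios deposited with the dye exchange allowed for, the roles of the contrasts would be exchanged: the 5 genes above would then count as higher with zymolyase, and the median of the members' means would be 0.18. The members' own values do not settle which reading holds. With ratios taken as already turned, the stress genes HSP12, GPD1, GPP2 and DDR2 would change sign between the orientations.

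**Figure D2:**
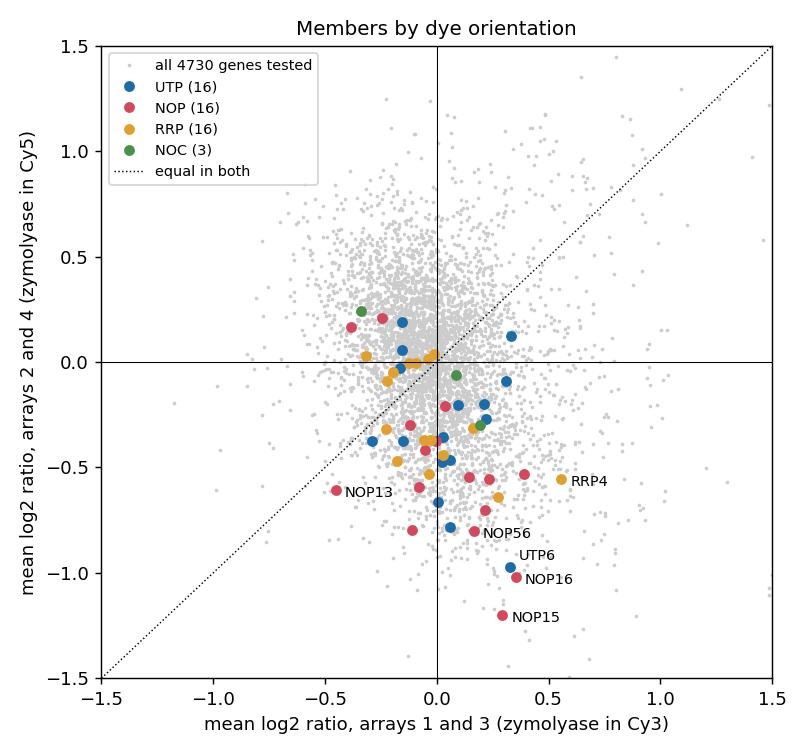
Mean log2 ratio on arrays 1 and 3 (horizontal, zymolyase in Cy3) against that on arrays 2 and 4 (vertical, zymolyase in Cy5) for all 4730 genes tested (grey, 20 of them outside the axes) and the members, coloured by family; named points passed a test. The members gather below 0 on the vertical axis and around 0 on the horizontal axis, with medians of -0.37 and -0.0047.

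The UTP genes were compared with the other families by their medians, array by array. The UTP median minus that of the other families was 0.061 on array 1 and 0.033 on array 3, and 0.0037 on array 2 and 0.082 on array 4. With zymolyase in Cy3 it was 0.075 (0.042 for UTP, -0.033 for the others). With Cy5 it was 0.056 (-0.31 for UTP, -0.37 for the others). For the mean of the 4 arrays the medians were -0.13 and -0.18, a difference of 0.053. These differences carry no test, since members are not replicates, so they show neither that the families differ nor that they are alike. With both orientations weighted equally, that of the means was -0.016 without array 3.

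The orientation difference had a median of 0.39 in the UTP family and 0.34 in the others. Of the 16 UTP genes 8 (50%) had both Cy3 arrays above both Cy5 arrays and none the reverse. Of the 35 others 17 (48.6%) had that order and 4 (11.4%) the reverse. Over all genes tested the shares were 26.7% and 30.3%. Among the 16 UTP genes none passed the zymolyase test, and of the 35 others 1 did (2.86%), against 3.15% of all genes. The orientation test was passed by 1 UTP gene, UTP6 (6.25%), and by 4 of the others (11.4%), against 6.68% of all genes.

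Within the UTP family the values are given by subcomplex. UTP-A, also called t-UTP, binds the start of the precursor and is linked to its transcription. UTP10, a large scaffold of UTP-A, read -0.53, 0.22, 0.59 and -0.47. UTP4, a WD-repeat protein gene, read -0.033, 0.46, 0.21 and -0.61, and UTP5 read -0.038, -0.27, 0.44 and -0.063. These 3 genes were positive on array 2, unlike most members. UTP15, the remaining tested subunit, read 0.0039, 0.11, -0.73 and -0.20. The UTP-A median was -0.021 over the 4 genes tested. UTP8 and UTP9, without array 2, read -0.059, 0.35 and -0.47, and 0.19, 0.28 and -0.50, on arrays 1, 3 and 4, so both were lowest with zymolyase in Cy5.

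UTP-B is a second scaffold of the processome. In 3 of its 4 members here both Cy3 arrays lay above both Cy5 arrays. Over all genes tested 26.7% had that order and 30.3% the reverse. With 4 genes, nothing about UTP-B is read from this count. Besides UTP6, UTP13 read -0.14, 0.19, -0.70 and -0.25. UTP21 read -0.083, 0.14, -0.34 and -0.37. UTP18 went another way, at -0.21, -0.11, 0.14 and -0.20. The UTP-B median was 0.024 on the Cy3 side and -0.41 on the Cy5 side.

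UTP-C is represented by UTP22 and RRP7, whose products bind each other. UTP22 had the highest mean of all 51 members. It read 0.32, 0.34, 0.44 and -0.20, a mean of 0.23 ± 0.29 (SD, n = 4 arrays; limma adjusted p = 0.65). RRP7 read -0.20, 0.15, -0.43 and -0.31, below UTP22 on every array.

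The other UTP genes had a median of -0.26 over 7. UTP7, a WD-repeat factor of the processome core, read 0.059, 0.059, -1.16 and -0.40 (mean -0.36 ± 0.58, SD, n = 4 arrays; limma adjusted p = 0.30), the lowest mean of the UTP family. UTP11 read 0.093, -0.086, -1.03 and -0.30. UTP20, which encodes a very large repeat protein, read -0.31, -0.26, -1.31 and 0.56. The last gene shows how far the arrays of 1 orientation could differ. Its mean was -0.33, but with both orientations weighted equally it was 0.14 without array 2 and -0.80 without array 4.

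UTP14, which activates the helicase that releases U3, read -0.059, 0.25, 0.095 and -0.51. UTP25 read 0.19, 0.25, -0.23 and -0.30, with no overlap between orientations. UTP30, related to a ribosomal protein and not essential, read 0.72, -0.10, -0.33 and 0.15. UTP14 and UTP30 changed sign within an orientation, and neither passed a test.

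**Figure D3:**
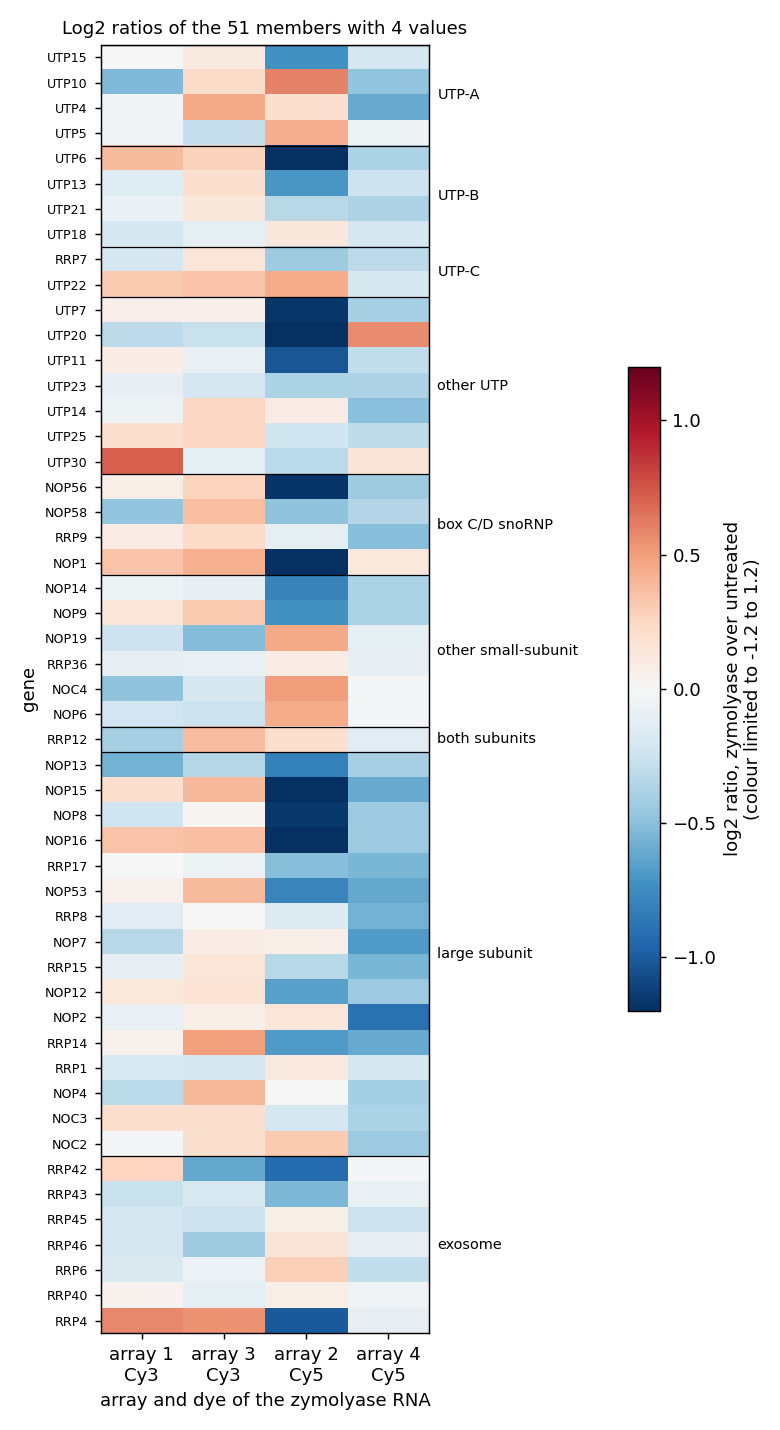
Log2 ratios of zymolyase over untreated for the 51 members with 4 values (rows, grouped by role) on the 4 arrays (columns, arrays 1 and 3 before 2 and 4); red is higher and blue lower with zymolyase, and colours stop at -1.2 and 1.2. Blue cells gather in the columns of arrays 2 and 4, and NOP13 is blue in all 4 columns.

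Of the 4 name families, NOP had the largest median orientation difference, 0.60. The Cy3 arrays gave a median of 0.015 and the Cy5 arrays one of -0.55, with -0.76 on array 2. All 16 tested had a negative mean, from -0.53 to -0.018. The large-subunit factor gene NOP8 read -0.24, 0.021, -1.16 and -0.43, with a mean of -0.45 ± 0.51 (SD, n = 4 arrays; limma adjusted p = 0.12). The mean of NOP15 was also -0.45, but with an SD of 0.99 over the 4 arrays. Without array 2, and with both orientations weighted equally, the mean was -0.16 for NOP15 and -0.27 for NOP8.

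The box C/D proteins were as follows. NOP1, the methyltransferase fibrillarin, read 0.35, 0.43, -1.19 and 0.13, positive on 3 arrays. Its orientation difference of 0.92 missed the threshold (limma adjusted p = 0.061). NOP58, the partner of NOP56, read -0.47, 0.36, -0.49 and -0.35. RRP9, a U3-specific protein gene, read 0.094, 0.23, -0.12 and -0.51. The 4 genes had a median orientation difference of 0.70.

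The large-subunit factors, 16 genes with values, had a Cy3 median of 0.031 and a Cy5 median of -0.48. On array 4 all 16 were negative, and their median rank was percentile 4.36 of all genes tested. NOP2, a methyltransferase of the large ribosomal RNA, was low chiefly on array 4: it read -0.093, 0.083, 0.15 and -0.89. NOP53, which recruits the helicase Mtr4 to large-subunit precursors, read 0.047, 0.38, -0.79 and -0.61, and its orientation difference of 0.92 missed the threshold (limma adjusted p = 0.062). RRP14, grouped here with the large subunit, read 0.055, 0.49, -0.68 and -0.61 and missed it as well (limma adjusted p = 0.063). Both NOP53 and RRP14 passed it with arrays median centred. NOP4, an RNA-binding factor, read -0.32, 0.39, -0.0047 and -0.41, so its orientations overlapped.

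RRP17, an exonuclease gene of large-subunit RNA processing, read -0.0052, -0.060, -0.51 and -0.54. Its mean of -0.28 ± 0.29 (SD, n = 4 arrays) was among the 3 lowest of the RRP family but did not pass (limma adjusted p = 0.50). NOP7 (-0.33, 0.091, 0.082 and -0.68) and NOP12 (0.13, 0.16, -0.65 and -0.44) did not pass either. The remaining large-subunit members, RRP1, RRP8 and RRP15, had means between -0.21 and -0.12.

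The NOC genes encode 3 proteins of export and maturation complexes. NOC2, a large-subunit protein gene, read -0.019, 0.19, 0.32 and -0.43, and its partner NOC3 read 0.20, 0.19, -0.21 and -0.38. NOC4, which acts in the small subunit with NOP14, read -0.49, -0.19, 0.51 and -0.023. NOC4 was thus opposite to most members in orientation, although its difference of -0.58 did not pass (limma adjusted p = 0.29).

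Of 6 tested small-subunit genes outside the UTP family, with RRP7 and RRP9 left out, 3 had that reverse order, NOC4 among them. The order common among members was found in 2. Over all genes tested 30.3% had the reverse order and 26.7% the other, so nothing about this list is read from these counts. NOP6 read -0.23, -0.26, 0.45 and -0.026, and NOP19 read -0.25, -0.52, 0.46 and -0.12. RRP46 of the exosome had the same order, and these with NOC4 are the 4 reversed members. NOP14, the partner of NOC4, did not follow it: it read -0.061, -0.094, -0.81 and -0.38. NOP9 read 0.15, 0.32, -0.72 and -0.38, the common order. In the 4 reversed members only array 2 was positive. Over the 6 genes given this role alone the median orientation difference was -0.27. RRP7 and RRP9, small-subunit members listed above under UTP-C and box C/D, had differences of 0.34 and 0.48. RRP3, a helicase gene with no value on array 2, read 0.78, 0.17 and -0.32 on arrays 1, 3 and 4.

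The exosome members showed little of the orientation pattern as a list, with RRP4 the exception. The 7 genes, RRP4 included, had a Cy3 median of -0.18 and a Cy5 median of -0.088. RRP40, a cap subunit, stayed close to 0 at 0.039, -0.12, 0.070 and -0.044. RRP42, of the ring, read 0.26, -0.61, -0.92 and -0.016, the lowest mean of the RRP family at -0.32 ± 0.54 (SD, n = 4 arrays; limma adjusted p = 0.39). RRP6, the nuclear exonuclease attached to the exosome, read -0.17, -0.074, 0.29 and -0.29. RRP12, an export factor of both subunits, read -0.40, 0.37, 0.21 and -0.13 and ended at a mean of 0.011. RRP5, a scaffold needed for both subunits, had 3 values, -0.027, 0.37 and -0.12 on arrays 1, 3 and 4.

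Grouping by subunit in place of family name gave a wider separation on the Cy5 arrays. All small-subunit members, the UTP genes among them, minus the large-subunit members came to 0.19 for the Cy5 arrays, -0.018 for the Cy3 arrays and 0.11 for the mean. The small-subunit median was -0.29 with zymolyase in Cy5 over 24 genes and the large-subunit median -0.48 over 16. No test goes with these medians.

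Other genes of ribosome assembly, taken from lists by function, were set beside the members. Of 111 such genes 106 were tested. The zymolyase test found 2 that fell (1.89%, against 0.803% of all genes) and none that rose (2.35% of all genes). In the orientation test 10 were higher with zymolyase in Cy3 (9.43%, against 4.55%) and none lower (2.14% of all genes). Their median was -0.13 for the mean, -0.011 on the Cy3 side and -0.29 on the Cy5 side, and 90 of the 106 had a negative mean (84.9%, against 52.6%). Small-subunit factors outside the families had medians of -0.014 and -0.28 over 39 genes (Cy3, then Cy5), and large-subunit factors of 0.020 and -0.30 over 49. Exosome genes outside the families, unlike the exosome members, had medians of 0.037 and -0.25 over 7 genes. Of these, CSL4, LRP1 and MTR4 passed the orientation test, all higher with zymolyase in Cy3 (42.9%, against 4.55% of all genes). The 7 RNA polymerase I genes had nearby medians of -0.092 and -0.11, although the median of their single differences was 0.23.

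The 2 that fell were CSL4 and RPA34. CSL4, a cap subunit of the exosome, read 0.19, -0.12, -0.95 and -1.19 (mean -0.52 ± 0.66, SD, n = 4 arrays; limma adjusted p = 0.047). RPA34, an RNA polymerase I subunit gene, read -0.33, 0.031, -1.36 and -0.39 (mean -0.51 ± 0.59; limma adjusted p = 0.04997). Both lay at the edge of the threshold, and neither was negative on all 4 arrays. The 10 with an orientation difference were CBF5, the pseudouridine synthase gene, at 1.37 (limma adjusted p = 0.0019), RCL1, LRP1, MTR4, CSL4, SSF1, DBP9, NHP2, CGR1 and MAK21, the last 9 between 0.97 and 1.26.

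CBF5 read 0.23, 0.19, -1.80 and -0.53, almost the profile of NOP15. KRR1, NIP7 and BRX1 had the lowest means of the small- and large-subunit lists that did not pass, at -0.45, -0.45 and -0.44. LAS1, at -0.44, differed from these in order: it read -0.68, -0.63, -0.31 and -0.14, lower with zymolyase in Cy3. LTV1 and PNO1 of the small-subunit list had means of -0.40 each, SNU13 and GAR1 of the small nucleolar particles -0.30 and -0.22, and the polymerase genes RPA135 and RPA43 -0.23 and -0.16, none past the test.

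**Figure D4:**
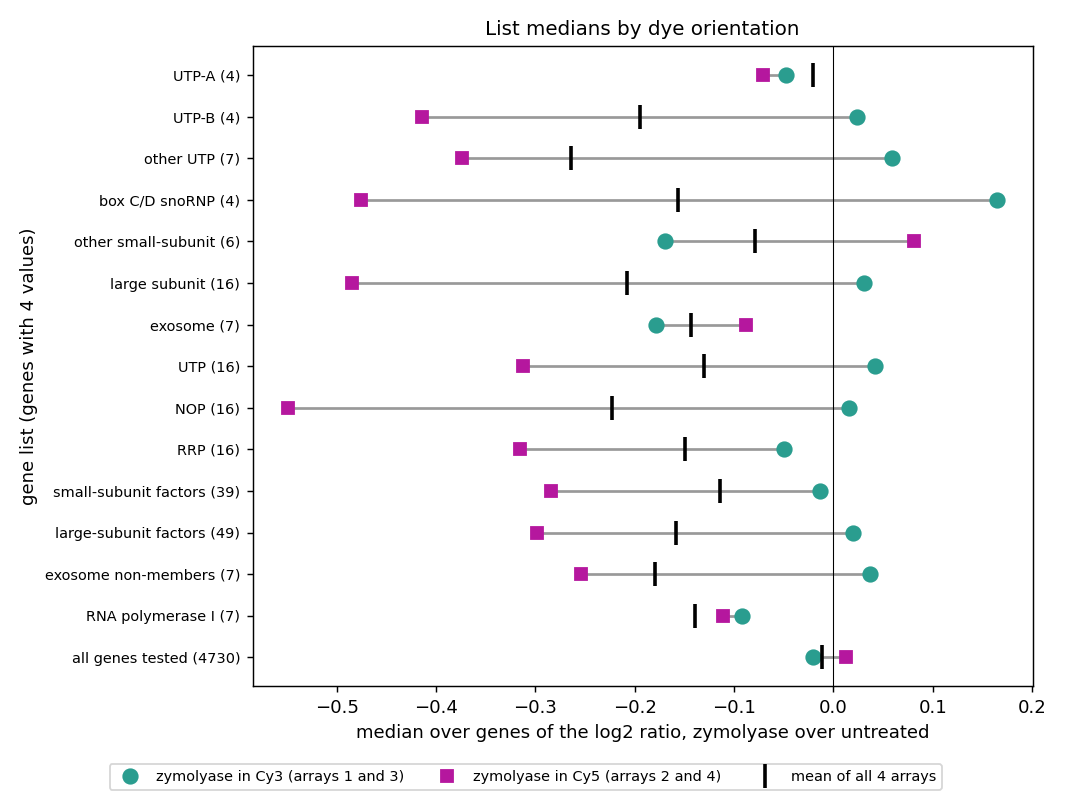
Median over genes of the log2 ratio of zymolyase over untreated (horizontal) for each gene list (vertical, number of genes with 4 values in brackets): circles are arrays 1 and 3, squares arrays 2 and 4, bars the mean of the 4 arrays. Most assembly lists lie near 0 with zymolyase in Cy3 and below 0 with it in Cy5 (NOP, 0.015 and -0.55). UTP-A, the exosome members and RNA polymerase I have nearby medians. The other small-subunit list, which leaves out RRP7 and RRP9, has the reverse order.

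Gene length was set beside the orientation difference as a description. Spearman's rho of gene length with the orientation difference was -0.061 over the 51 members and 0.10 over 4531 genes with a reference length. Within the UTP family it was -0.51 over 16 genes and within the others 0.082 over 35 genes, all read on the same arrays. The median difference was 0.29 for the 17 members shorter than 1000 bases, 0.48 for the 20 from 1000 to 2000 bases and 0.27 for the 14 longer ones. In all genes of these lengths it was -0.059, -0.018 and 0.063, so members lay above the other genes in each length class.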

How the data were processed

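Per the labels, total RNA of zymolyase-treated and untreated cells was labelled with Cy5 or Cy3 in first-strand cDNA synthesis and hybridised to 4 two-colour arrays. The deposited values are 1 log ratio per feature, taken here as log2; the scanner, the normalization and the rule for blanks, like the numerator and the log base, were not stated in the labels or headers. With column medians from -0.070 to 0.017, the values were not centred further in the main fits. The files hold no intensities, so the number of arrays limits the precision.

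Of 6209 features 2 controls were left out, and 5708 matched a gene of the R64 reference table, 54 of them by an older name; 499 did not. Features of 1 gene were averaged (34 genes). Of 6172 genes and unmatched features, 4730 had 4 values and were tested, 985 had 1 to 3 values and 457 none. The arrays' genome build is not stated, so the reference served for names and lengths only.

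Arrays 2 and 4 were multiplied by -1. No label ties arrays to cultures, so limma 3.58.1 in R 4.3.3 (lmFit, eBayes, Benjamini-Hochberg over all genes) was fitted under both possible pairings, and a call needed an adjusted p under 0.05 in both; the larger is given. The p-values rest on the spread between 2 cultures pooled over all genes, not on a gene's own spread. Only a single pairing can be right, and the other averages arrays of different cultures. The orientation test used the difference between the 2 arrays of a culture (in full size where the plan named a scaled one, which leaves the test the same). The fits were run on simulated data with independent noise of equal spread on every array. The real arrays differed in spread and correlated within an orientation, so error rates in these data were not checked by it.

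Members and lists were chosen with earlier results of these data known. All UTP genes are given on each array, and in other families the 3 highest and 3 lowest means, the 3 largest orientation differences and every gene past a test; other members named were added for their role. Alternatives were array scaling, each array left out, genes with blanks, ratios taken as already turned, a dye term, robust eBayes, single pairings, and other member rules. No sequences of these genes were used here.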

Additional observations from a re-analysis of the deposited data

Results flagged for a closer look

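Among the 51 members, 4 had 1 array far from the other 3 by Dixon's test. Chance gives about 1 in 20 genes where the arrays are alike in spread, which array 2 was not. The share over all genes was not counted, so nothing about the members is read from these flags. NOP58 stood out on array 3, at 0.36 against -0.49 to -0.35 on the others. RRP1 (0.12), RRP36 (0.085) and RRP45 (0.074) stood out on array 2, each slightly positive there and negative on the other arrays. The part of array 2, which had the widest ratios, in these values was not tested.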

How the results depend on the processing

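Zymolyase calls among members (1) became 0 with arrays scaled to a common spread and with a dye term, 5 with ratios taken as already turned, and 0 to 13 without single arrays (0 without array 1, 2 or 3, 13 without array 4). Orientation calls among members (5) became 2, 0, 1 and 0 to 19 in the same order, 8 under the single pairing of arrays 1 with 4 and 2 with 3, and 8 with older names admitted. Over all genes, zymolyase calls (149) became 77 with a dye term, 316 as already turned and 25 to 1027 without single arrays; orientation calls (316) became 20, 149 and 0 to 1677, and 144 with scaled arrays. Fits without an array also used the dye term, which over the 4 arrays by itself took both member counts to 0. Their counts are therefore not comparable with the main counts, and a fall to 0 cannot be credited to the array left out. These fits took the 3 arrays left as independent and the lone array of its orientation to vary like the others.

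Taken as already turned, the medians of the mean became 0.18 (members), 0.19 (UTP) and 0.17 (others), the members' Cy5 median 0.37, their orientation difference -0.33, and UTP minus others in Cy5 -0.056. The mean and difference became 0.077 and -1.06 for NOP13, 0.75 and -0.91 for NOP15, 0.69 and -0.67 for NOP16, 0.48 and -0.64 for NOP56, and 0.65 and -0.65 for UTP6. The members' Cy5 median was -0.31 with scaled arrays, -0.32 with older names and -0.37 to -0.33 without single arrays. With both orientations weighted equally, UTP minus others for the mean was -0.016 to 0.071 without single arrays. It was 0.015 with genes of at least 1 array per orientation. For Cy3 it was 0.033 to 0.075 without single arrays and 0.097 with older names. Small- against large-subunit members gave 0.11 (mean), -0.018 (Cy3) and 0.19 (Cy5). Median centring, robust eBayes and genes with 1 complete culture kept each count within 1.5 times. Apart from the turning, the causes were not tested. Arrays were paired into cultures in the tests, under both possible pairings; no fit with a replicate block was made, since the 4 replicate numbers name single arrays of 1 group. No motif was searched, since no promoter sequence was used here.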

Other observations

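Some reading frames without a gene in the reference are numbered next to members, and their values are given without a test. YOR309C, next to NOP58, read 0.24, 0.42, -0.89 and -0.74, an orientation difference of 1.15 where NOP58 had 0.36. YDR413C, next to RRP17, had a difference of 0.80 and RRP17 one of 0.50. YNL109W, next to NOP15, had a difference of 0.11 against 1.49 for NOP15, and YJL009W, next to NOP9, had -0.51 against 0.79. Whether such neighbours overlap the members was not examined, since the build of the arrays is not stated.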
